A study of Rattus norvegicus with 2 samples.

Results

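The enzymes that carry methionine, betaine and taurine metabolism were read in rat liver as 10 genes, Mat1a, Mat2a, Gnmt, Ahcy, Bhmt, Bhmt2, Cbs, Cdo1, Csad and Pemt, by every probe that the deposited table lists under these symbols. They had 14 probes of 41012 on the array, 2 for each of 4 genes and 1 for each of 6, and all 14 carried the detection letter P on both arrays. The livers came from male Wistar rats, 22 weeks old, with chronic alcoholic fatty liver. The propolis group had received 52% alcohol at 1% of body weight for 7 weeks and then a compound abbreviated EEP, called propolis here after the series title, in a 50% ethanol solution at 0.1% of body weight for 4 weeks. The saline group had the same alcohol feeding and then normal saline at the same dose and for the same time, without the ethanol of the solution. Whether alcohol was still given in those last 4 weeks is not clear from the labels, and there was no group without alcohol. Each group was 1 pool of RNA from 6 animals, read on 1 single-colour Agilent array, so that no value below has a replicate check, no p-value was computed, and a difference cannot be set against the spread between animals. Differences are given in log2 units, propolis minus saline.

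Methionine is the source of the methyl groups that liver cells put on lipids, small molecules, proteins and nucleic acids. Methionine adenosyltransferases turn it into S-adenosylmethionine, methyltransferases spend the methyl group, and the remaining S-adenosylhomocysteine is split to homocysteine. Homocysteine is either given a new methyl group, by betaine in liver and kidney or by folate in most tissues, or passed by transsulfuration to cysteine, from which glutathione and taurine are made. In rat studies, ethanol feeding is known to lower S-adenosylmethionine in the liver, and betaine feeding is known to lessen alcoholic fatty liver.

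In the propolis pool, Csad, the enzyme that makes hypotaurine, the precursor of taurine, was 2.37-fold higher than in the saline pool. Bhmt, which remethylates homocysteine with betaine, was 1.88-fold lower by its brighter probe and 3.26-fold lower by the other. Gnmt, the abundant glycine methyltransferase that disposes of surplus S-adenosylmethionine, was 1.59-fold lower. Mat1a, the liver form of methionine adenosyltransferase, was 1.46-fold lower, while Mat2a, the form of most other tissues, lay 0.32 log2 units higher. Ahcy and Cbs, which act on S-adenosylhomocysteine and homocysteine, differed by -0.04 and -0.25 log2 units. Reading each gene by its brightest probe, 8 of 10 lay below 0, where 47.4% of all 11915 genes with a detected probe did. Their median difference was -0.42, against 0.02 over all these genes. The members were chosen with earlier results of these data known, so these contrasts only describe the list. At least 1.5-fold lower were 2 of 10 members (9.03% of all genes), and at least 1.5-fold higher was 1 (6.94% of all genes). That gene, Csad, was also at least 2-fold higher (2.55% of all genes), and by the brightest probe none was at least 2-fold lower (3.64% of all genes).

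Large differences were rarer among bright genes than among all genes, and the members other than Mat2a were bright. Of 4641 genes with a mean log2 signal of at least 9, a limit chosen after the values were seen so as to take in every member but Mat2a, 4.18% were at least 1.5-fold lower, 3.68% at least 1.5-fold higher, 1.25% at least 2-fold higher, 1.21% at least 2-fold lower and 47.6% below 0. Csad lies over this limit by the mean of both pools and under it in the saline pool. A measure of probe error came from 614 genes with 2 probes as bright as this on both arrays, whose differences lay a median of 0.10 log2 units apart. Differences between animals or pools are no part of that value.

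The sequences before the starts of Bhmt, Gnmt and Csad are shown because these were the 3 members at least 1.5-fold apart. Each is the stretch of 250 bases upstream of the gene's start, 5′ to 3′, taken from RefSeq on build GRCr8, in which 8 of the 10 members had an entry. Capitals mark matches on either strand to the TATA box with the letters TATAAA, the CCAAT box, the GC box with the letters GGGCGG and the E-box with the letters CACGTG, none of which overlap here. The Bhmt stretch is chr2:26614430-26614679, minus strand, the Gnmt stretch chr9:21752032-21752281, plus strand, and the Csad stretch chr7:135215582-135215831, minus strand.
Bhmt: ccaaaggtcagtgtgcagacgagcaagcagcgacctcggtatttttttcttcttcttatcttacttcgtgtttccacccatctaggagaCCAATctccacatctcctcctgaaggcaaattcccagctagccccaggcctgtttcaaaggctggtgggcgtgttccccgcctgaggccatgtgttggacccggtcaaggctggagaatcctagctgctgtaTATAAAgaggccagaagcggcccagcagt
Gnmt: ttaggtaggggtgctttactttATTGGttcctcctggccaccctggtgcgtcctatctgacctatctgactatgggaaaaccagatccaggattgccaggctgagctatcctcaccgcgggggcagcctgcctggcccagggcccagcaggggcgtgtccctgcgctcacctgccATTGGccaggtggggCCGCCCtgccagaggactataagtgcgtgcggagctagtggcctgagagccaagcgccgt
Csad: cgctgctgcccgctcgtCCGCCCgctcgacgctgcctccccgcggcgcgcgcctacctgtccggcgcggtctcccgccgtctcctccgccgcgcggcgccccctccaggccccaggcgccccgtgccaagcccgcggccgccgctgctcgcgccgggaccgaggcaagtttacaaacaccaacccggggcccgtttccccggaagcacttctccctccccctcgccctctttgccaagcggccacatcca
The Bhmt stretch held TATAAA starting 29 bases before the gene's start and CCAAT 161 bases before it. The Gnmt stretch held CCAAT on the opposite strand (ATTGG) at 228 and 75 bases, and a GC box on the opposite strand at 60 bases. The Csad stretch held a single match, a GC box on the opposite strand at 233 bases, and was rich in G and C, at 76.0% against 53.6% in Bhmt, 62.4% in Gnmt and a median of 51.2% over 33469 rat promoters. Of those promoters 12.9% held TATAAA, 34.0% CCAAT, 30.5% GGGCGG and 5.59% CACGTG in the same window. A match is a description of letters and names no factor.

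Betaine-homocysteine methyltransferase, Bhmt, transfers a methyl group of betaine to homocysteine and returns methionine and dimethylglycine. Its brighter probe, A_44_P535284, read a log2 signal of 16.48 in the propolis pool and 17.39 in the saline pool. The other, A_44_P360510, read 13.30 in the propolis pool and 15.00 in the saline pool. Both probes were lower in the propolis pool, by -0.91 and -1.70 log2 units, and thus agreed in direction but not in size. A gap of at least the 0.79 log2 units between them was found in 6 of the 614 genes with bright probe pairs (0.98%), Bhmt itself included. The deposited coordinates name no build. In them the brighter probe lies on chromosome 2 from 23923690 to 23923749, minus strand. The other is placed from 23924355 to 23926571, a span of 2217 bases where 12 of the other member probes span 60 bases, so that its letters cannot all lie side by side in the genome. Averaging the probes put Bhmt past 2-fold lower, and by the brighter probe alone it was not. Of 7271 probes detected on both arrays with a mean log2 signal of at least 9, 1.40% were as low as the brighter Bhmt probe and 0.29% as low as the other.

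Bhmt2, a close relative that in mammals uses S-methylmethionine in place of betaine, read 12.45 in the propolis pool and 12.89 in the saline pool (-0.44, 1.35-fold lower). Its probe lies on the same chromosome from 23958507 to 23958566, and 31935 bases separate it from the Bhmt probes. In the RefSeq gene order of GRCr8, Bhmt, the ribosomal protein-like gene Rpl36l7, Bhmt2 and Dmgdh are neighbours. Dmgdh, which oxidises the dimethylglycine that Bhmt releases, read 10.19 in the propolis pool and 10.47 in the saline pool (-0.28). Bhmt, Bhmt2 and Dmgdh were thus each lower in the propolis pool, where 47.4% of all genes with a detected probe lay below 0. Rpl36l7 and Jmy, the neighbour on the other side of Bhmt, are given no value here. The values therefore do not describe the locus as a whole. Arsb, the gene for the lysosomal enzyme arylsulfatase B and next after Dmgdh, read 6.47 in the propolis pool and 7.16 in the saline pool (-0.69), and was added after its value was seen. Bhmt and Bhmt2 transcripts are similar, and these values cannot show how far a probe of either binds the other.

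**Figure D1:**
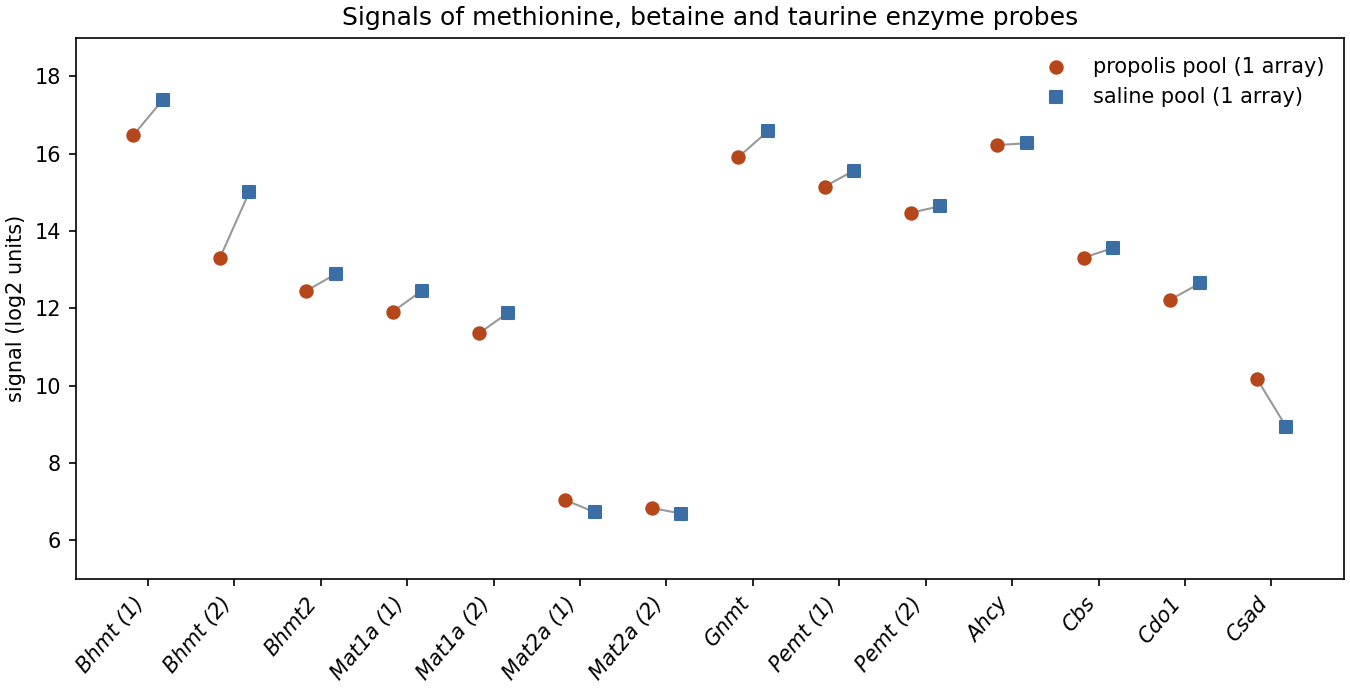
Log2 signal (vertical axis) of each of the 14 probes, with the propolis pool as a circle on the left and the saline pool as a square on the right of each pair; (1) is the brighter and (2) the dimmer probe of a gene, and each symbol is 1 array. The Csad and Mat2a probes are higher in the propolis pool and the other 11 probes lower; heights of different probes are not comparable with each other.

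The adenosyltransferases lay on opposite sides of 0. Mat1a, which makes S-adenosylmethionine in differentiated hepatocytes, read 11.91 in the propolis pool and 12.46 in the saline pool by probe A_44_P493931, and 11.35 in the propolis pool and 11.89 in the saline pool by probe A_44_P493938. The differences of -0.54 and -0.54 log2 units (1.46-fold and 1.45-fold lower) lay 0.0076 apart, the closest pair among the 4 members with 2 probes. These probes start 420 bases apart on chromosome 16, at 17562657 and 17562237. Mat2a, which serves most other tissues and is known to rise in growing liver, read 7.04 in the propolis pool and 6.72 in the saline pool by probe A_43_P15601. Its other probe, A_44_P118993, read 6.84 in the propolis pool and 6.69 in the saline pool. Both were slightly higher in the propolis pool (0.32 and 0.14), and the probes start only 65 bases apart on chromosome 4, at 105740819 and 105740884.

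A further probe, A_44_P1037609, carries no gene symbol and so falls outside the rule, but the table gives it the same Ensembl transcript as Mat2a and describes it as the type 2 S-adenosylmethionine synthetase. It lies 2216 bases from the nearer Mat2a probe on the same strand, on chromosome 4 from 105738543 to 105738602. It read 12.18 in the propolis pool and 11.67 in the saline pool (0.51, 1.43-fold higher), the same side as both Mat2a probes and a larger difference. It was found after the values of Mat2a had been seen and is counted with no member. Mat2b, the regulatory subunit that binds the Mat2a enzyme, read 8.37 in the propolis pool and 8.34 in the saline pool (0.03).

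Among the enzymes that spend S-adenosylmethionine, Gnmt, whose product is sarcosine, read 15.91 in the propolis pool and 16.58 in the saline pool by its only probe (-0.67). Of the 7271 bright probes, 2.96% were as low. Pemt, which methylates phosphatidylethanolamine to phosphatidylcholine, a lipid needed for lipoprotein export, read 15.15 in the propolis pool and 15.56 in the saline pool by its brighter probe (-0.41). Its other probe read 14.47 in the propolis pool and 14.65 in the saline pool (-0.17). Both Pemt probes lay below 0 and under 1.5-fold, with a gap of 0.24 between them, and they start 2919 bases apart on chromosome 10. Ahcy, which splits S-adenosylhomocysteine into homocysteine and adenosine, read 16.23 in the propolis pool and 16.27 in the saline pool, the smallest difference of the 14 probes (-0.04).

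Downstream of homocysteine, the enzymes of cysteine and taurine making did not lie on the same side. Cbs, which joins homocysteine and serine to cystathionine, read 13.31 in the propolis pool and 13.56 in the saline pool (-0.25). Cdo1, the dioxygenase that turns cysteine into cysteine sulfinate, read 12.23 in the propolis pool and 12.64 in the saline pool (-0.42, 1.34-fold lower). Csad, which decarboxylates cysteine sulfinate to hypotaurine, read 10.18 in the propolis pool and 8.94 in the saline pool (1.25). Of all 23054 probes detected on both arrays, 0.88% were as high as Csad. The Csad value rests on a single probe, on chromosome 7 from 140918180 to 140918239, minus strand, with no second probe to check it. Consecutive enzymes of the taurine route, Cdo1 and Csad, thus lay on opposite sides of 0.

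**Figure D2:**
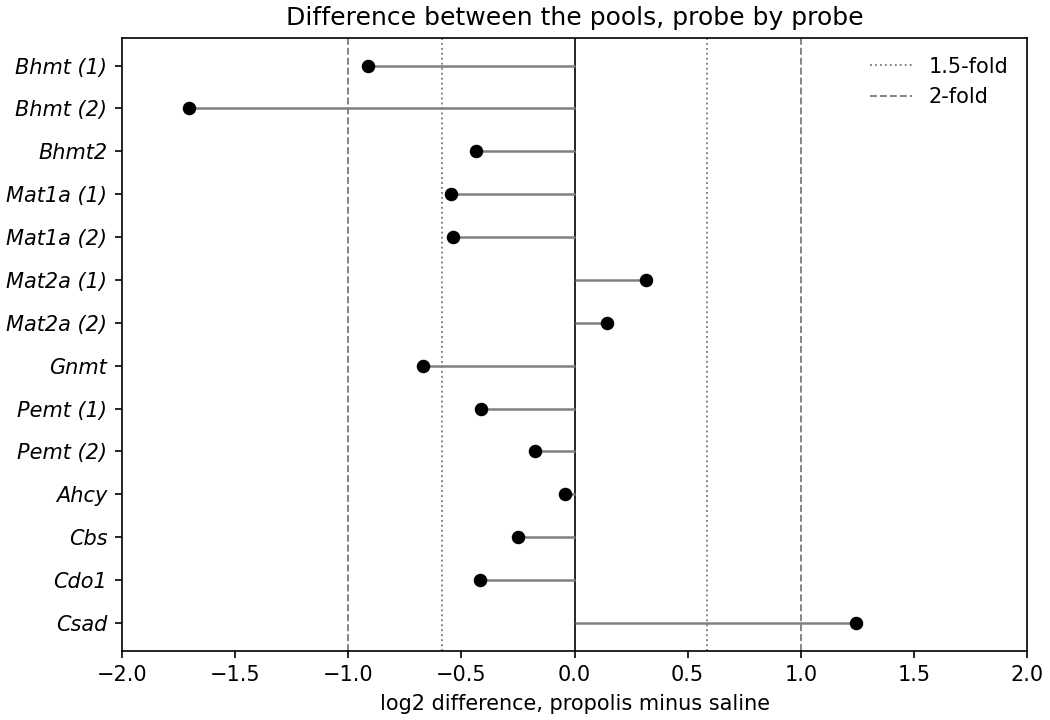
Log2 difference, propolis minus saline (horizontal axis), of each of the 14 probes, with lines at 1.5-fold (dotted) and 2-fold (dashed); (1) is the brighter and (2) the dimmer probe of a gene. Csad is the only probe past 2-fold on the right (1.25), and the dimmer Bhmt probe (-1.70) the only one past 2-fold on the left.

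**Figure D3:**
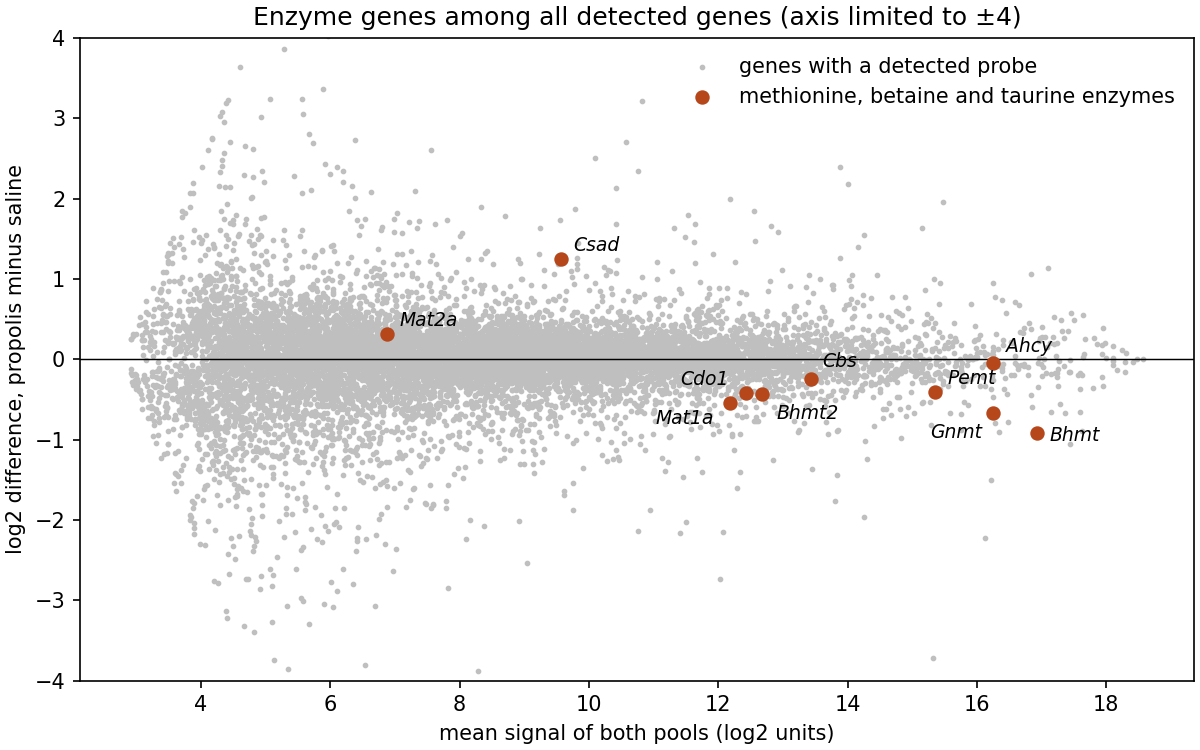
Log2 difference (vertical axis, limited to 4 on either side, which leaves out 10 genes) against the mean log2 signal of both pools (horizontal axis) for 11915 genes with a detected probe, in grey, with the 10 enzyme genes in colour, each by its brightest probe. The spread of the grey points narrows with signal, and Csad, Bhmt and Gnmt lie towards its edges while Ahcy and Cbs lie within it.

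The pathways around these enzymes had list medians from -0.11 (transsulfuration, glutathione and sulfur oxidation) to 0.23 (taurine). Of 78 further genes in 7 lists, 4 had no probe under their symbols and 3 were detected on neither array. Of the 71 measured, 35 lay above and 36 below 0, with a median of -0.0008. Of these, 5 were higher (6.94% of all genes) and 5 lower (9.03% of all genes) by at least 1.5-fold. By at least 2-fold, 4 were higher (2.55% of all genes) and 2 lower (3.64% of all genes). For a gene detected on 1 array the difference is a bound: its level on the other array was set to the lowest detected signal there (3.83 on both arrays), or to its own signal where that was higher.

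Around choline and betaine, 9 of 16 measured genes lay above 0 (median 0.05). Chka, the kinase that commits choline to phosphatidylcholine, was 2.05-fold higher in the propolis pool (7.79 in the propolis pool against 6.75 in the saline pool), and 1.72-fold higher with 50 signal units added to both arrays. Slc6a12, a betaine transporter, was 1.60-fold lower (7.67 in the propolis pool against 8.35 in the saline pool), and so was Slc25a48, a mitochondrial carrier (7.02 in the propolis pool against 7.70 in the saline pool). With the 50 units added, Slc6a12 was 1.49-fold and Slc25a48 1.43-fold lower. Chdh, which starts betaine making from choline, differed by 0.39, and Sardh, which oxidises sarcosine, by -0.39. The choline and betaine genes thus showed values on both sides, and none of the 16 was at least 2-fold lower.

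The alternative route of homocysteine remethylation, by folate, showed no gene past 1.5-fold. Of its 14 measured genes 6 lay above and 8 below 0 (median -0.0049). Mtr, the folate-dependent methionine synthase that does the same conversion as Bhmt, read 6.14 in both pools (-0.0021). Where Bhmt was lower in the propolis pool, Mtr thus differed by less than the median gap of 0.15 log2 units between the probes of 2596 genes with at least 2 detected probes.

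Among partners of S-adenosylmethionine and S-adenosylhomocysteine, Ahcyl2, a relative of Ahcy not thought to split S-adenosylhomocysteine, was 3.37-fold lower in the propolis pool (6.35 in the propolis pool against 8.10 in the saline pool), and at least 3.53-fold lower by a second probe that was detected on the saline array only. Ahcyl1, the other such relative, differed by -0.01 by the brightest of 5 probes, the others ranging from -0.10 to 0.32. Of 8 measured methyltransferases, Inmt, which methylates indole amines, was 6.54-fold higher (11.92 in the propolis pool against 9.21 in the saline pool). Nnmt, which methylates nicotinamide, differed by -0.49, and Gamt, which makes creatine, by 0.11, with a second probe at 0.02. Users of S-adenosylmethionine, Gnmt and Pemt included, thus did not share a direction.

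In the list of transsulfuration, glutathione making and sulfur oxidation, 5 of 11 measured genes lay above and 6 below 0 (median -0.11). Cth, which releases cysteine from cystathionine after Cbs, differed by 0.34 (12.46 in the propolis pool against 12.12 in the saline pool). Gclc, the catalytic subunit of glutamate-cysteine ligase, which takes cysteine into glutathione, was 2.33-fold higher (8.15 in the propolis pool against 6.93 in the saline pool), and its partner subunit Gclm, below detection on the saline array, by its bound at least 2.44-fold higher (5.11 in the propolis pool against 1.83 in the saline pool). With 50 signal units added to both arrays, Gclc was 1.94-fold and Gclm by its bound 1.32-fold higher, so that neither reached 2-fold. Got1, an aminotransferase that also acts on cysteine sulfinate, the substrate of Csad, was 2.19-fold lower (11.67 in the propolis pool against 12.80 in the saline pool). The glutathione synthetase gene Gss differed by -0.23, and Ethe1, a mitochondrial sulfur dioxygenase, by -0.38. Ggt1, which starts the breakdown of glutathione, differed by -0.56 at a low signal (4.36 in the propolis pool against 4.92 in the saline pool). Tst, of the same list, went the other way (0.40). Gss, Ethe1, Ggt1 and Tst were all chosen after their values were seen. Genes of this list thus lay on both sides of 0.

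In the taurine list 5 of 6 measured genes lay above 0 (median 0.23), none past 1.5-fold. Baat, which joins bile acids to taurine or glycine, differed by 0.23 (16.07 in the propolis pool against 15.84 in the saline pool), and the taurine transporter gene Slc6a6 by -0.22 (5.80 in the propolis pool against 6.02 in the saline pool). Ado, which oxidises cysteamine, was below detection on the saline array and at least 1.23-fold higher in the propolis pool. In the polyamine and salvage list, which recovers methionine from S-adenosylmethionine spent on polyamines, 7 of 10 genes lay below 0 (median -0.08), and the spermine synthase gene Sms was 1.63-fold lower at a low signal (4.93 in the propolis pool against 5.63 in the saline pool), and 1.24-fold lower with the 50 units added.

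**Figure D4:**
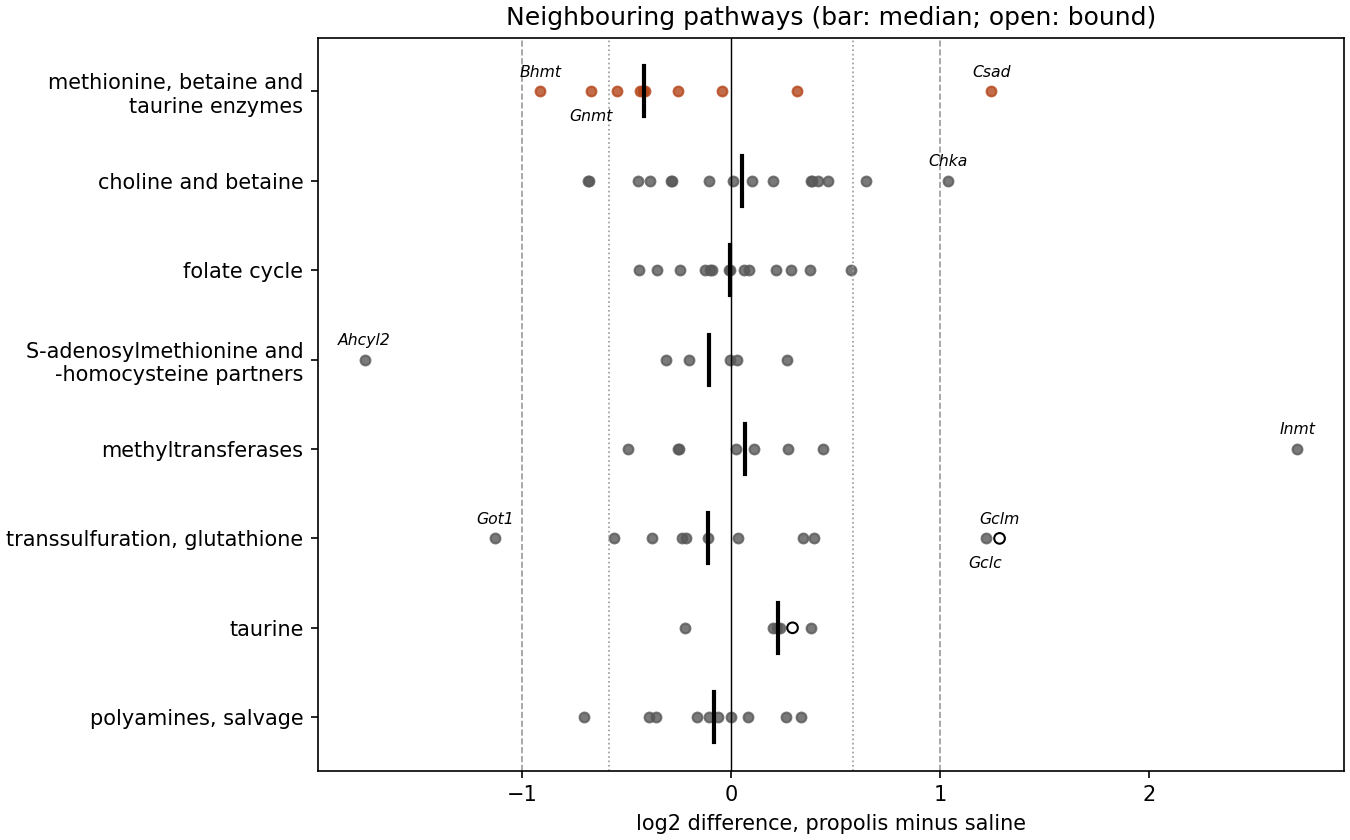
Log2 difference, propolis minus saline (horizontal axis), of the 10 enzymes and of 71 measured genes in 7 neighbouring lists; each point is 1 gene by its brightest probe, open points are bounds, bars are list medians, and lines mark 1.5-fold (dotted) and 2-fold (dashed). The enzymes' median lies at -0.42 and those of the other lists between -0.11 and 0.23.

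Markers of the tissue and of its other cells were read on the same arrays. The 10 hepatocyte markers were detected on both arrays, Alb at 18.08 in the propolis pool and 17.87 in the saline pool, and their differences had a median of 0.04. Of 10 periportal hepatocyte markers 8 lay below 0 (median -0.56). At least 1.5-fold lower were 4 (9.03% of all genes). The log2 of the summed signal of the 10 was 17.82 in the propolis pool and 18.26 in the saline pool. Of 10 pericentral markers 8 lay above 0 (median 0.40). At least 1.5-fold higher were 3 (6.94% of all genes). The log2 summed signal of the 10 was 17.77 in the propolis pool and 16.91 in the saline pool. It leaned on Cyp2e1, the brightest of them, at 17.37 in the propolis pool and 16.30 in the saline pool. Axin2 and Lgr5 lay below 0 (-0.20 and -0.33), and Tbx3 differed by 0.04. Macrophage markers (6 of 7 below 0, median -0.68) and erythroid markers (5 of 5 below 0, median -0.86) were mostly lower in the propolis pool. The log2 summed signal of the macrophage markers was 15.19 in the propolis pool and 15.73 in the saline pool, and that of the erythroid markers 11.57 in the propolis pool and 12.42 in the saline pool. Endothelial markers had a median of -0.39 over 7 genes, bile duct markers of -0.52 over 4, and stellate cell and fibroblast markers of 0.26 over 6, while the bile duct marker Sox9 and the fibroblast marker Lum were detected on neither array. The part of these shifts in the enzymes' differences was not tested, and in pooled liver RNA fewer cells of a type and less RNA per cell cannot be told apart.

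**Figure D5:**
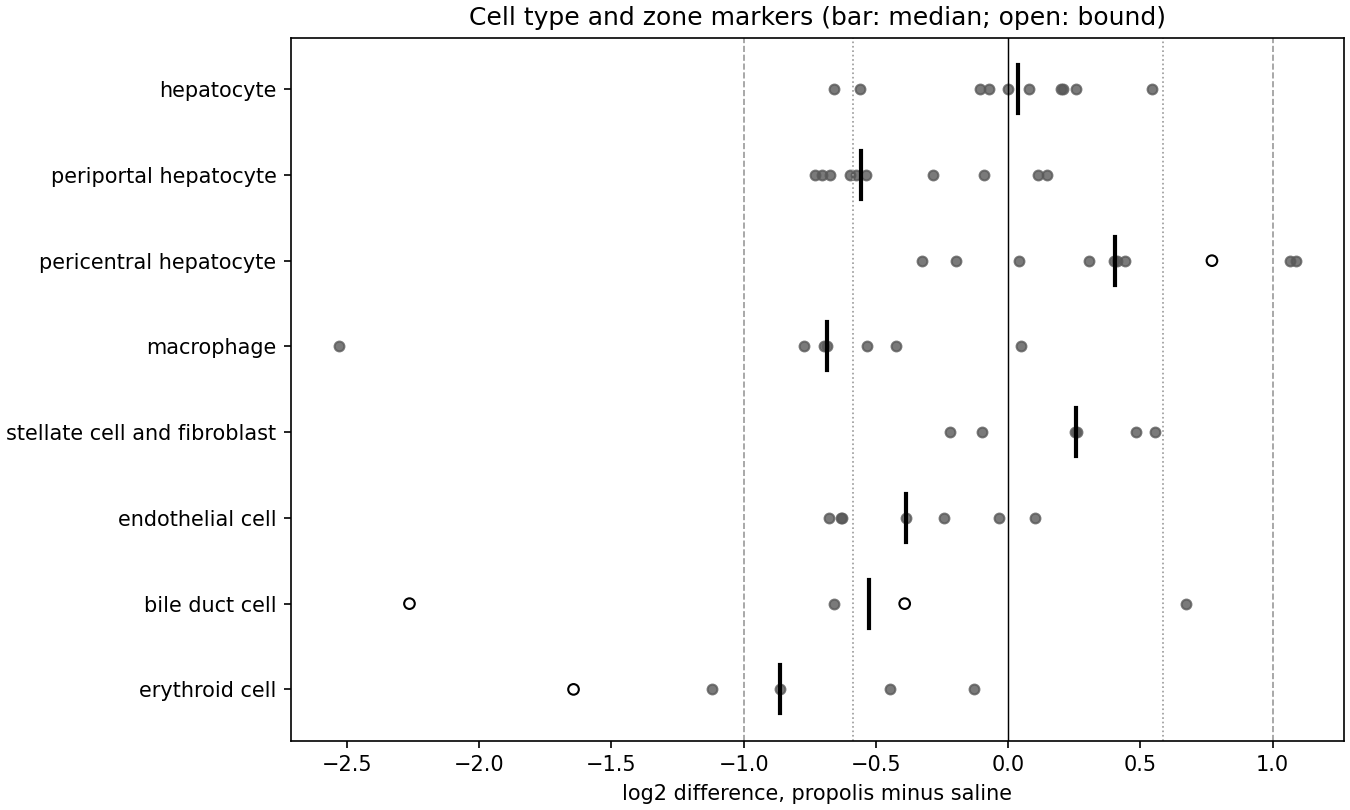
Log2 difference, propolis minus saline (horizontal axis), of marker genes of liver cell types and hepatocyte zones; each point is 1 gene by its brightest probe, open points are bounds, bars are medians, and lines mark 1.5-fold (dotted) and 2-fold (dashed). Periportal markers have a median of -0.56, pericentral markers of 0.40 and general hepatocyte markers of 0.04.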

How the data were processed

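The submitters' processing notes name Agilent Feature Extraction 9.5. The authors deposited log2 signals of 41012 probes, already normalized, a detection letter for each value and the linear fold ratio of propolis over saline. Sorted, the 2 columns differed by at most 0.026 log2 units. How background was corrected and what the letters stand for is not stated; P was taken as detected. The deposited series matrix holds the same log2 values, rounded, for 23054 probes, each detected on both arrays; the column medians are 7.53 (propolis) and 7.52 (saline).

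Symbols were updated by Entrez gene ID to RefSeq names of GRCr8 (20959 of 21871 matched), a gene's value was that of its brightest probe with P on at least 1 array, and probes with P on 1 array took a bound. With 1 array per group, differences and counts at 1.5-fold and 2-fold are given with no test, and the number of arrays limits the precision. Counting was tested on simulated data. The members and lists were chosen with earlier results of these data known. The rule named all member probes, other pathway genes at least 1.5-fold apart and 15 fixed genes; some of these genes are not reported here, and others named are marked. Python 3.11.15, numpy 2.4.6, pandas 2.3.3, statsmodels 0.14.6 and matplotlib 3.10.9 were used.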

Additional observations from a re-analysis of the deposited data

How the results depend on the processing

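No paired analysis was possible because each group has 1 pooled array. The differences of the 14 member probes moved by at most 0.09 log2 units under centring on the array median, quantile normalization, loess (span 0.3), the series matrix values and 50 signal units added, and none changed sign. Centring, quantile normalization and the series matrix could hardly move a value and are no check. The deposited columns already share a median and nearly the same sorted values, and the matrix holds the same values rounded. These settings moved a probe by at most 0.0, 0.0044 and 0.0083. Over the alternatives run, the members' median ranged from -0.42 to -0.36 and that of the other pathway genes from -0.0033 to 0.016, and a loess curve moved the median of all genes from 0.02 to -0.0016. Taking the mean of a gene's probes gave 1 member at least 2-fold lower in place of 0, namely Bhmt. By the brightest probe, no member was 3-fold higher (0) or lower (0), and 1 other pathway gene was higher and 1 lower. The dimmer Bhmt probe taken alone was 3.26-fold lower. At 2-fold by the brightest probe, 0 members and 2 other pathway genes were lower, against 2 and 5 at 1.5-fold. With 50 signal units added, which shrinks differences of dim genes by construction, 2 other pathway genes in place of 5 were at least 1.5-fold lower and 1 in place of 4 at least 2-fold higher; Chka, Gclc and Gclm dropped below 2-fold, and Slc6a12, Slc25a48 and Sms below 1.5-fold. Using measured differences in place of bounds, chosen after seeing the data, left every member count as it was. Detection on both arrays and no filter on detection also left the member counts as they were, since every member probe was detected.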

Other observations

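Genes that build phosphatidylcholine from choline lay on both sides of 0, all chosen here after their values were seen. Pcyt1a, the enzyme that sets the pace of this route, differed by -0.45 (-0.41 by a second probe), while the cholinephosphotransferase genes Chpt1 and Cept1 differed by 0.38 and 0.46 and the choline kinase gene Chkb by 0.20. Pipox, which oxidises pipecolate and sarcosine, read 11.75 in the propolis pool and 11.33 in the saline pool (0.41). None of these reached 1.5-fold, whereas Chka of the same route, described above, was 2.05-fold higher.

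Other probes described as relatives of the enzymes lay outside the rule. RGD1560523, described as similar to an S-adenosylmethionine synthetase, read 6.59 in the propolis pool and 6.28 in the saline pool (0.31), on the same side as the Mat2a probes. A probe without a symbol, described as similar to adenosylhomocysteinase, read 10.94 in the propolis pool and 11.00 in the saline pool (-0.07), and a probe described as similar to Bhmt2 was detected on neither array.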
